A study of Mus musculus with 2 samples.

Results

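Complement genes were examined in Sox9GFPHi chondrospheres, the colonies that grow from single mouse cartilage cells in methylcellulose. The 8 genes were *C1ra*, *C1s1*, *C3*, *C4b*, *Cfb*, *Serping1*, *Cd55* and *Cd59a*, chosen by symbol as components and regulators of the complement cascade, and all 8 were listed among the 23628 genes measured. The data are 2 RNA-sequencing libraries of 1 condition, replicate 1 and replicate 2. The cells came from femoral heads of pups at postnatal day 7, homozygous for *Sox9*IRES-EGFP, in which GFP is made from the *Sox9* gene itself. They were sorted for high GFP and for the absence of CD31, Ter119 and CD45, which removes endothelial cells, erythrocytes and leukocytes, and were grown at low density and low oxygen in serum-containing medium with FGF2, BMP4, IGF1, LIF and TGF-β1. According to the methods each pup was harvested as a separate replicate, while the labels give only replicate numbers, so that the spread between the libraries may be technical. With no second condition, no test between groups was possible. Values are given per library, with the mean ± SD over both.

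Complement is a cascade of plasma and tissue proteins that tags and lyses targets. In the classical pathway C1q binds a target and activates the proteases C1r and C1s, which cleave C4 and C2. In the alternative pathway factor B joins C3 in a self-amplifying enzyme. Both routes cleave C3 and lead to the terminal pore, and host cells hold them back with soluble inhibitors such as C1 inhibitor and membrane proteins such as CD55 and CD59. The liver makes most plasma complement, but cartilage cells also transcribe several components, C1s has been described in hypertrophic cartilage, and several cartilage matrix proteins bind complement proteins.

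From the step between their lowest values, replicate 1 held about 43300000 reads on genes and replicate 2 about 42200000. Levels are counts-per-million (CPM) values, each gene's share of all reads on genes, and 3 reads, taken as the limit that a count of 0 allows, amount to 0.0693 and 0.0712 CPM. Intervals quoted below are 95% intervals from these reads and cover counting error only. All 8 chondrocyte markers checked were at least 53.1 CPM in both libraries, with *Col2a1* at 124817 ± 34133 CPM and *Sox9* at 265 ± 18.9 CPM (SD, n = 2 each). Among 9 macrophage and leukocyte markers, *Adgre1*, *Itgam*, *Fcer1g* and *Tyrobp* were at 0 in both libraries and *Ptprc* reached 0.0474 CPM, while *Cd14* and *Cd68* were at 3.05 ± 0.521 and 2.48 ± 0.119 CPM (SD, n = 2 each). The sum over all 9 was 5.94 CPM (replicate 1) and 6.91 CPM (replicate 2). The 5 endothelial markers summed to at most 0.231 CPM and the 4 erythroid markers to at most 0.12 CPM, and the 2 hepatocyte markers listed, *Apoa1* and *Apob*, were at 0. Of 8 fibroblast markers, *Pi16* and *Clec3b* were at 0 and *Thy1* was at 0.208 and 0 CPM, but *Pdgfrb* (140 and 152 CPM), *Dcn* (879 and 267 CPM) and *Col1a1* (1166 and 584 CPM) were high. The sum over the fibroblast list was 2187 CPM (replicate 1) and 1005 CPM (replicate 2).

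The genes lie on 4 chromosomes, and *C1ra*, *C1s1*, *C4b*, *Cd55* and *Cd59a* each have a related copy nearby. On chromosome 6 of GRCm38, *C1ra* (124512405 to 124523443, plus strand, 11 exons) and *C1s1* (124530345 to 124542359, minus strand, 12 exons) converge across 6.9 kb, and their copies *C1rb* and *C1s2* follow on the same chromosome. On chromosome 17, *C4b* (34728380 to 34743882, minus strand, 41 exons) is 65.2 kb from its copy *C4a*, and *Cfb* (34856374 to 34862518, minus strand, 18 exons) lies 32.9 kb beyond *C4a*. *C3* (57203970 to 57228136, minus strand, 41 exons) is far from them on the same chromosome. On chromosome 2, *Cd59a* (104095801 to 104115354, plus strand, 5 exons) is 4.6 kb from *Cd59b*, and *Serping1* (84765387 to 84775444, minus strand, 8 exons) stands alone. On chromosome 1, *Cd55* (130439027 to 130462744, minus strand, 10 exons) is 16.0 kb from *Cd55b*. These positions come from GENCODE M21.

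C3 and C4 are related proteins, and each carries an internal thioester with which it attaches to a target. The coding stretch around this site is shown for both. It lets *C4b*, which of the 8 had the largest measured difference between the libraries, be compared with its relative *C3* and its copy *C4a*. Capitals mark the 5 codons of the thioester site in *C3* (chr17:57215805-57215894, minus strand) and *C4b* (chr17:34734442-34734531, minus strand).
C3: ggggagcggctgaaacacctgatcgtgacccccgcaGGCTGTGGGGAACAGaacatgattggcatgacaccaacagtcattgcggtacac
C4b: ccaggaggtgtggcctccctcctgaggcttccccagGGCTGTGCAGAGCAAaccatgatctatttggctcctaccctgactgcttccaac
In the aligned *C4a* stretch (chr17:34815102-34815190, minus strand), capitals instead mark the bases that differ from *C4b*.
C4a: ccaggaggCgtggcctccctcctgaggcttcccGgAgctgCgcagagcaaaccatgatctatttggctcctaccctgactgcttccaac
The *C4a* stretch has 4 substitutions and lacks 1 of the 90 *C4b* bases, and the annotation lists no protein-coding transcript for *C4a*.

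Such copies matter here because the reads were single 50-base reads and the authors' assignment method can divide a read among genes. Of the 50-base windows of the longest coding transcript, none of *C3* or *Serping1* also occurred in a transcript of another gene. The share was 3.98% for *Cd59a*, 13.3% for *Cd55*, 24.3% for *C1s1*, 35.2% for *C4b* and 50.8% for *C1ra*, in each case with the paralog and for *C1ra* also with *Gm18840*. For *Cfb* it was 81.4%, all with *Gm20547*, an overlapping gene model on the same strand that was assigned at most 1.79e-05 CPM. The coding sequences were 98% identical between *C1ra* and *C1rb*, 95.6% between *C1s1* and *C1s2*, 91.8% between *Cd55* and *Cd55b* and 85% between *Cd59a* and *Cd59b*. The transcripts of *C4b* and *C4a* were 96.1% identical. The copies that were listed had lower CPM than their partners, least so for *Cd59b* in replicate 2, where *Cd59a* had 1.3 CPM. *C1rb* had 0.0695 CPM (replicate 1) and 7.5e-06 CPM (replicate 2), *C4a* had 0.865 and 0.688 CPM, and *Cd59b* had 0.245 and 0.455 CPM. *C1s2* and *Cd55b* were not listed, so the reads assigned to them are not known. In addition, *C1s1* overlaps the antisense gene *Gm16567* over 11400 bases and *Cd55* overlaps *Gm16083* over 169 bases, neither of which was listed, and whether reads were assigned by strand is not given in the sources used here. The level of a gene with shared windows therefore depends on that assignment.

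**Figure D1:**
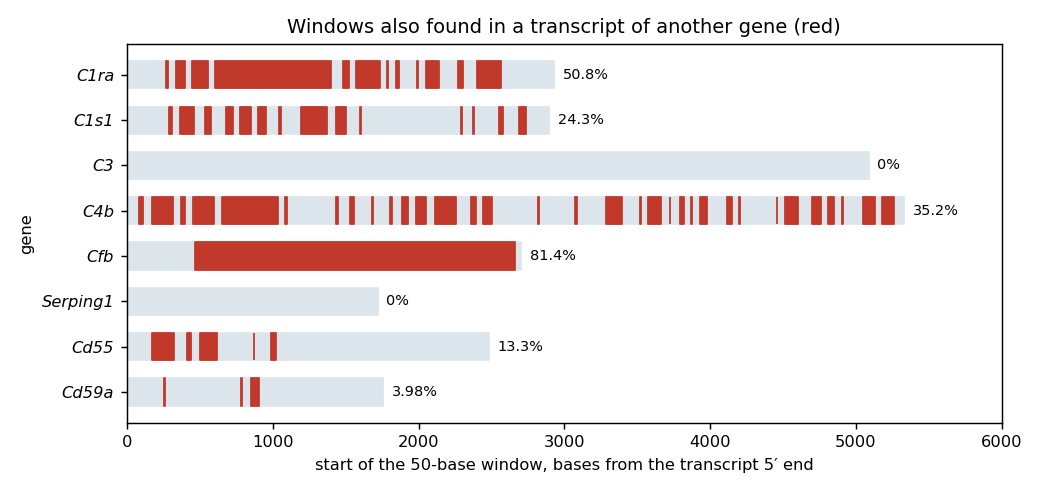
Each bar is the longest coding transcript of 1 gene, with the start of every 50-base window on the x axis in bases from the 5′ end. Red marks windows that also occur in a transcript of another gene, which are absent from C3 and Serping1 and cover 81.4% of Cfb.

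The genes of the proteases C1r and C1s differed little between the libraries. *C1ra*, which encodes C1r, averaged 15.4 ± 2.44 CPM (SD, n = 2), from 13.6 CPM (replicate 1) and 17.1 CPM (replicate 2), and its mean ranked 6514 of all genes listed. *C1s1*, which encodes C1s, averaged 5.49 ± 1.19 CPM (SD, n = 2), from 4.64 and 6.33 CPM. Both were higher in replicate 2, although by less than 2-fold. Per kilobase of coding transcript, *C1ra* stood at 4.57 and 5.73 CPM per kb and *C1s1* at 1.58 and 2.15 CPM per kb. *C1s1* was thus 2.9-fold below *C1ra* in replicate 1 and 2.67-fold below in replicate 2. The log2 ratio was -1.48 ± 0.09 (SD, n = 2), larger than the spread between libraries.

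*C4b*, which encodes the C4 that C1s cleaves, had the largest measured difference of the 8 between the libraries. About 3013 reads in replicate 1 gave 69.6 CPM, about 205 reads in replicate 2 gave 4.86 CPM, and the mean was 37.2 ± 45.8 CPM (SD, n = 2). The SD exceeded the mean, and the counting intervals of 67.2 to 72.1 and 4.22 to 5.58 CPM lie far apart. In replicate 1 it ranked 1442 of all genes and was the highest of the 8, at 12.9 CPM per kb. In replicate 2 it ranked 9977 and stood at 0.904 CPM per kb, below *C1ra*, *Cd55* and *C1s1*. The deposited values differ 14.3-fold, with a counting interval of 12.4 to 16.6. Its copy *C4a* had 0.865 and 0.688 CPM.

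*C3*, the central component, averaged 3.73 ± 1.68 CPM (SD, n = 2), from 4.92 CPM (replicate 1) and 2.54 CPM (replicate 2). Its interval was 4.28 to 5.63 CPM for replicate 1 and 2.08 to 3.07 CPM for replicate 2, and these do not overlap. Per kilobase, *C3* was 13.5-fold below *C4b* in replicate 1 and 1.83-fold below in replicate 2. The log2 ratio was -2.31 ± 2.04 (SD, n = 2), just beyond its spread. *Cfb*, which encodes factor B of the alternative pathway, had the lowest mean of the 8. It had 0.0462 CPM in replicate 1, which is 2 reads and below the 3-read limit, and 0.546 CPM in replicate 2, which is 23 reads. The ratio of replicate 2 to replicate 1 was 11.8, with a wide counting interval of 2.92 to 103. The size of the *C4b* difference, 14.3-fold in the opposite direction, lies within that interval. Per kilobase *C3* exceeded *Cfb* by 57.1-fold in replicate 1, with a counting interval of 15.6 to 474, and by 2.49-fold in replicate 2, with one of 1.58 to 4.1. The log2 ratio of *C3* to *Cfb*, 3.58 ± 3.19 (SD, n = 2), rests in replicate 1 on those 2 *Cfb* reads.

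*Serping1*, which encodes C1 inhibitor, the serpin that blocks C1r and C1s, was near the bottom as well. Replicate 1 gave 0.762 CPM (33 reads), replicate 2 gave 0.427 CPM (18 reads), and the mean was 0.595 ± 0.237 CPM (SD, n = 2). Replicate 1 exceeded replicate 2 by 1.79-fold in the deposited CPM, with a counting interval of 0.977 to 3.37. Relative to the median gene, which was higher in replicate 2, the ratio was 2.2-fold, with an interval of 1.21 to 4.16. Per kilobase *Serping1* was 10.6-fold below *C1ra* in replicate 1 and 23.7-fold below in replicate 2. This log2 ratio was -3.99 ± 0.82 (SD, n = 2). Against *C1s1* it was 3.65-fold and 8.9-fold lower, a log2 ratio of -2.51 ± 0.91 (SD, n = 2). The transcripts of both proteases therefore exceeded that of their inhibitor by more than the spread between libraries.

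Of the membrane regulators, *Cd55* encodes decay-accelerating factor, which takes apart the enzymes that cleave C3. It averaged 7.33 ± 2.95 CPM (SD, n = 2), from 5.24 CPM (replicate 1) and 9.42 CPM (replicate 2), and was higher in replicate 2. *Cd59a*, whose product blocks assembly of the terminal pore, averaged 1.95 ± 0.917 CPM (SD, n = 2), from 2.6 and 1.3 CPM, and was higher in replicate 1. Per kilobase *Cd55* exceeded *Cd59a* by 1.44-fold in replicate 1 and 5.16-fold in replicate 2. The log2 ratio of the pair was 1.45 ± 1.30 (SD, n = 2), just beyond its spread. With the exonic length of all transcripts it was 0.51, and with *Cd59b* added to *Cd59a* it was 1.17, both within that spread.

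**Figure D2:**
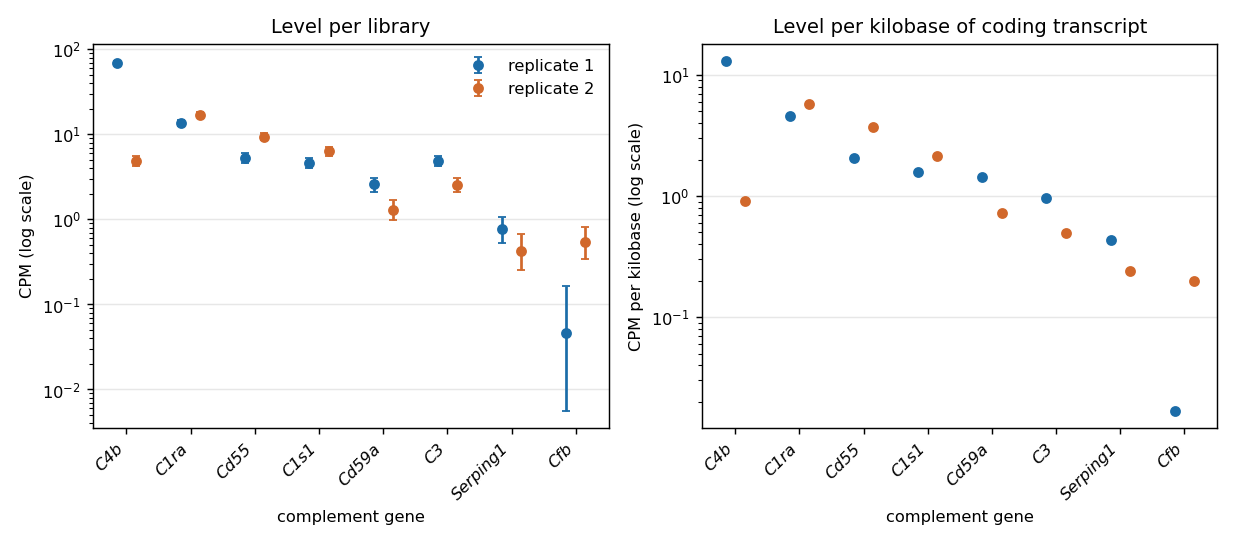
The left panel plots CPM and the right panel CPM per kilobase of the longest coding transcript, both on log axes, for the 8 complement genes in replicate 1 (blue) and replicate 2 (orange). Bars on the left are 95% Poisson intervals from the reads. C4b is the highest gene in replicate 1 at 12.9 CPM per kb and drops below C1ra, Cd55 and C1s1 in replicate 2.

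By mean level per kilobase the order was *C4b*, *C1ra*, *Cd55*, *C1s1*, *Cd59a*, *C3*, *Serping1* and *Cfb*. With *C4b* set aside, the other 7 kept this order in both libraries when divided by the longest coding transcript. Some neighbours were close, with *C1s1* 1.1-fold above *Cd59a* in replicate 1 and *Serping1* 1.22-fold above *Cfb* in replicate 2. Between neighbours, the difference did not exceed its spread for *C4b* and *C1ra*, with a log2 ratio of -0.58 ± 2.94 (SD, n = 2), for *C1s1* and *Cd59a* (0.85 ± 1.02), or for *Serping1* and *Cfb* (2.48 ± 3.11). It did for *C1ra* over *Cd55* (0.88 ± 0.37), *Cd55* over *C1s1* (0.59 ± 0.28), *Cd59a* over *C3* (0.56 ± 0.03) and *C3* over *Serping1* (1.09 ± 0.08). An SD from 2 libraries can fall below counting error, and no counting interval was computed for these pairs. In replicate 2, *Cd59a* rested on 55 reads, *C3* on 107 and *Serping1* on 18. Division by the exonic length of all transcripts in place of the longest coding one placed *Cd55* below *C1s1*, at a log2 ratio of -0.26, since the annotated exons of *Cd55* cover 4853 bases and its longest coding transcript 2533. The sum over the 8 genes was 101 CPM (replicate 1) and 42.5 CPM (replicate 2). *C4b* made up 68.6% of that sum in replicate 1 and 11.4% in replicate 2, and without it the sums were 31.8 and 37.6 CPM. The median of the 8 means was 4.61 CPM, against 1.63 CPM for all genes listed. It was 0.1 CPM for the other 38 complement genes described below. The 8 were chosen with earlier results of these data known, so their median does not stand for complement genes in general.

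Most genes had higher CPM values in replicate 2, by a median log2 ratio of 0.30 over the 12631 genes whose mean was 1 CPM or more. Differences between the libraries were therefore taken relative to this median, with 0.1 CPM added to each value, a scale that understates the change of low genes. More than 2-fold lower in replicate 2 were 3 of the 6 complement genes that passed this filter (*C4b*, *C3* and *Cd59a*), beside 6.06% of the 12631 genes. None was more than 2-fold higher, beside 7.43% of the 12631 genes. With 1 library on each side these counts describe the libraries and carry no p. On this scale the log2 ratio of *C4b* was -4.12, and only 16 of the 12631 genes, itself included, were as low. *C3* stood at -1.23 and *Cd59a* at -1.25, while *C1ra* (0.02), *C1s1* (0.14) and *Cd55* (0.53) were within 2-fold. The other 2 genes were below 1 CPM on average, *Serping1* at -1.01 and *Cfb* at 1.84. Without centring, *C4b* alone of the 6 was past 2-fold, since *C3* was at -0.93 and *Cd59a* at -0.95. With 1 CPM added in place of 0.1, *Cd59a* was at -0.93.

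**Figure D3:**
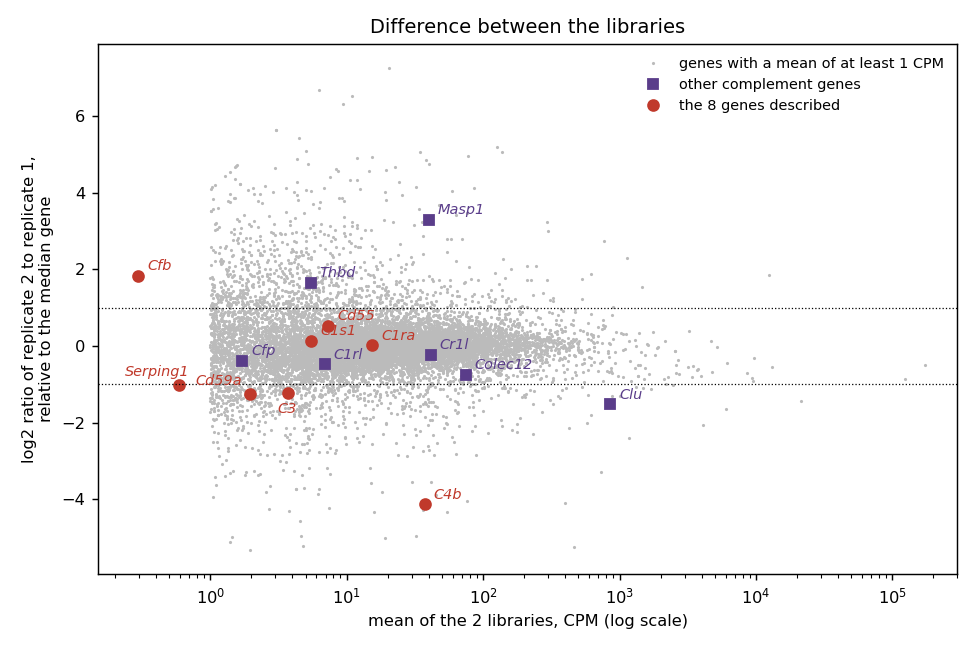
The log2 ratio of replicate 2 to replicate 1, relative to the median gene, is plotted against the mean CPM on a log axis, with the 8 genes as red circles, 7 other complement genes as purple squares and every gene whose mean was 1 CPM or more in grey. Dotted lines mark 2-fold. C4b lies at -4.12 near the lower edge of the cloud, and Masp1 lies at 3.30.

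Other measurements moved between the libraries beside these genes. Of the 8 chondrocyte markers, 7 lay below the median gene in replicate 2, with a median log2 ratio of -0.78, and *Col9a1* (-1.09) and *Matn3* (-4.10) were past 2-fold. Their summed level was 187245 CPM (replicate 1) and 129663 CPM (replicate 2). Of the 4 fibroblast markers that passed the same filter, *Dcn* (-2.02) and *Col1a1* (-1.30) were more than 2-fold lower in replicate 2. The other 2, *Pdgfra* (0.10) and *Pdgfrb* (-0.19), were within 2-fold. By definition as many of the 12631 genes lay below the median gene as above it, and 6.06% were more than 2-fold lower. The part of these shifts in the differences of *C4b*, *C3* and *Cd59a* was not tested. In such bulk libraries, fewer cells of a kind and less RNA per cell cannot be told apart.

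The rest of the cascade was read from lists of 56 complement genes, the 8 included, of which 46 were listed. A mean of at least 1 CPM was reached by 13 of the 46, beside 53.5% of all genes listed, and 12 were at 0 in both libraries. Without the 8, the counts were 7 of 38 with at least 1 CPM. The C1q subunits that start the classical pathway, *C1qa*, *C1qb* and *C1qc*, were all at 0, which allows up to 0.0693 CPM (replicate 1) and 0.0712 CPM (replicate 2). *C2*, the other substrate of C1s, had 0.123 and 0.562 CPM. *C1rl*, a C1r-like protease gene, averaged 6.89 ± 0.583 CPM (SD, n = 2).

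Of the 7 listed genes of the lectin pathway, which starts from sugar-binding proteins, 2 had a mean of at least 1 CPM. *Masp1*, which encodes proteases of this pathway, stood at 5.96 CPM (replicate 1) and 73.8 CPM (replicate 2), a log2 ratio of 3.30 relative to the median gene, opposite in sign to *C4b*. *Colec12*, a collectin of the cell surface, was measured at 74.5 ± 16.1 CPM (SD, n = 2). *Masp2* had 0.5 and 0.285 CPM. *Fcna*, *Fcnb*, *Colec10* and *Colec11*, which encode soluble sugar-binding proteins, had at most 0.0949 CPM in either library. The genes *Mbl1* and *Mbl2* were not listed. In the alternative pathway, *Cfp*, which encodes the stabilizing factor properdin, was measured at 1.71 ± 0.0674 CPM (SD, n = 2), and *Cfd*, which encodes the factor D that cleaves factor B, was at 0 in both libraries.

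The terminal pathway and the receptors stayed below 1 CPM in both libraries. Of the 3 terminal genes listed, *Hc*, which encodes C5, reached 0.996 CPM, *C8g* 0.689 CPM and *C6* was at 0. None of the 9 receptor genes exceeded 0.277 CPM in either library, the level of *C5ar2* in replicate 1, and *C3ar1* and *C5ar1* were at 0.

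Among the regulators, the highest CPM was that of *Clu*, which encodes clusterin, an inhibitor of the terminal complex. It averaged 855 ± 479 CPM (SD, n = 2), from 1193 CPM (replicate 1) and 516 CPM (replicate 2), and was more than 2-fold lower in replicate 2, at a log2 ratio of -1.51 relative to the median gene. *Cr1l*, which encodes the rodent membrane inhibitor Crry, was steady at 41.4 ± 1.52 CPM (SD, n = 2). Per kilobase, *Cr1l* stood at 14.5 and 15.3 CPM per kb, above *Cd55* at 2.07 and 3.72 CPM per kb and *Cd59a* at 1.44 and 0.72 CPM per kb in both libraries. *Thbd*, which encodes thrombomodulin, had 2.17 and 8.71 CPM, a log2 ratio of 1.65. *Cfi*, which encodes the factor I that inactivates cleaved C3 and C4, was at 0 in both.

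**Figure D4:**
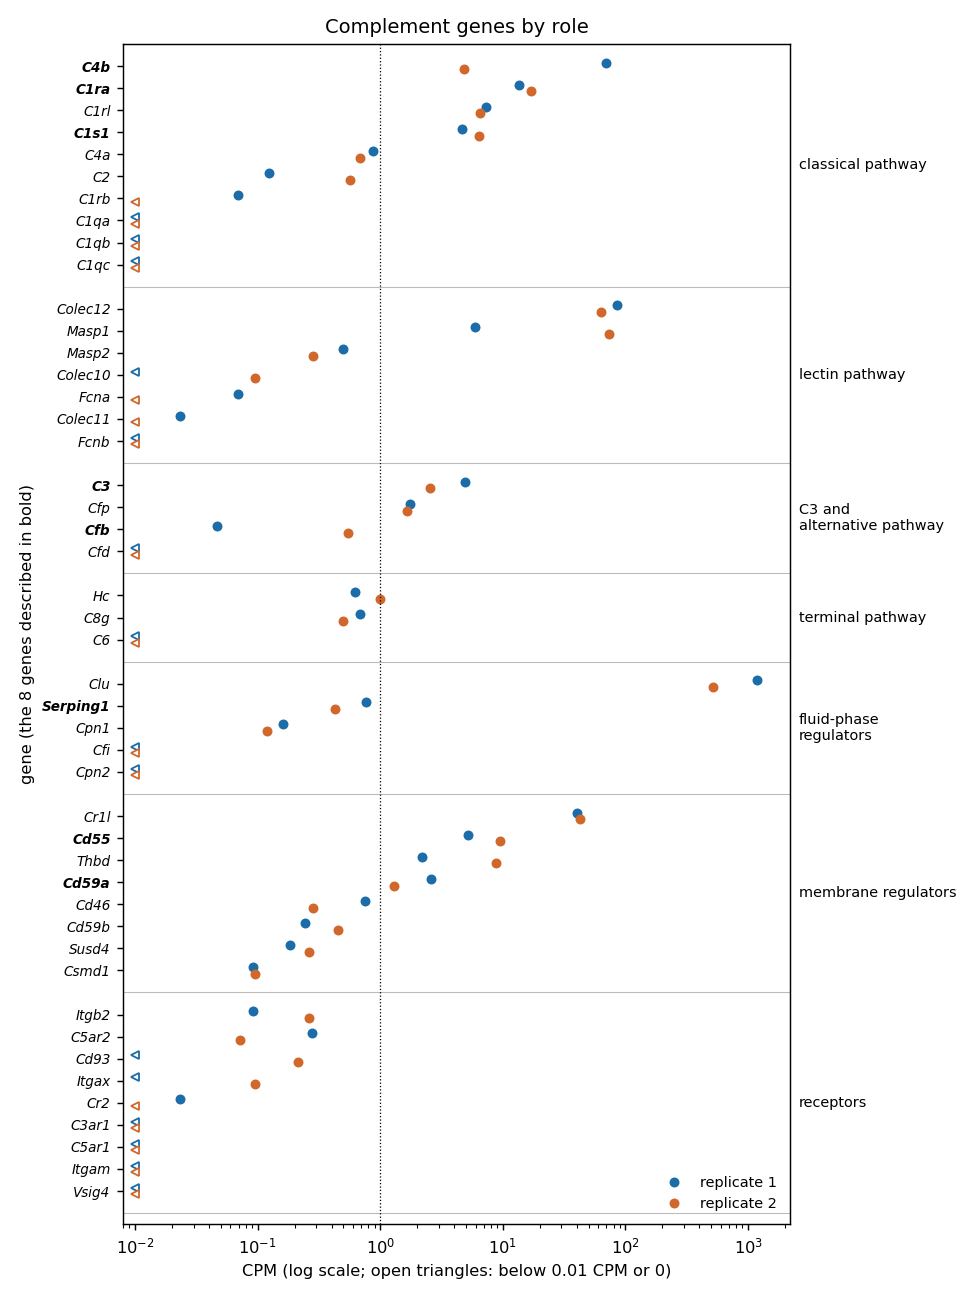
CPM on a log axis is shown for the 46 listed complement genes in 7 roles, in replicate 1 (blue) and replicate 2 (orange), with the 8 genes described in bold and a dotted line at 1 CPM. Open triangles are values of 0 or below 0.01 CPM. Of the 13 genes right of the line by mean, none is a receptor or a terminal component.

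Cartilage matrix genes whose proteins bind complement were all transcribed. The 8 of this list lay between 20.5 and 14170 CPM, a scale that does not allow for gene length, with the highest value for *Acan* at 13086 ± 1533 CPM, followed by *Bgn* at 9745 ± 7.73 CPM and *Comp* at 9383 ± 2424 CPM (SD, n = 2 each). *Chad* was measured at 4126 ± 3161 CPM, *Fmod* at 3198 ± 373 CPM, *Prelp* at 76.4 ± 9.31 CPM and *Omd* at 42.3 ± 30.8 CPM (SD, n = 2 each). All 8 lay below the median gene in replicate 2, and *Chad* (-2.05), *Dcn* (-2.02) and *Omd* (-1.94) were past 2-fold, beside 6.06% of the 12631 genes.

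Interferons, and cytokines that act through NF-kB, C/EBP or STAT3, are known to raise transcription of several complement genes, so their targets are given beside them. Of 13 interferon targets, 8 had a mean of at least 1 CPM, 7 of these lay below the median gene in replicate 2, and *Ifit3* (47.1 and 7.92 CPM) and *H2-D1* (59.3 and 26.5 CPM) were more than 2-fold lower relative to that gene. *Irf1* lay above it, with 1 and 2.19 CPM, and so did *Isg15*, whose mean was below 1 CPM, with 0.439 and 1.42 CPM. The others with a mean above 10 CPM were *B2m* at 238 ± 37.6 CPM and *H2-K1* at 44.1 ± 10.9 CPM (SD, n = 2 each). Of 14 acute-phase and NF-kB or STAT3 targets, 8 had a mean of at least 1 CPM, and *Lcn2* (1.5 and 0.498 CPM), *Hp* (2.01 and 0.949 CPM) and *Icam1* (10.2 and 5.41 CPM) were more than 2-fold lower in replicate 2 relative to the median gene, with log2 ratios of -1.73, -1.31 and -1.21. Both counts of lower targets stand beside 6.06% of the 12631 genes. The factor genes *Stat3*, *Cebpb* and *Cebpd* were measured at 131 ± 4.35, 41.8 ± 4.95 and 19.3 ± 1.37 CPM (SD, n = 2 each), whereas *Saa3*, *Cxcl1*, *Il1b* and *Tnf* were at 0 in both libraries. Their part in the complement values was not tested.

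Promoter sequences are shown for *C3* and *Cd59a*, which were both more than 2-fold lower in replicate 2. Both are 300-base RefSeq windows of GRCm38.p6, from 250 bases before to 50 bases after the start. They were searched on both strands for TTCNNNGAA (a STAT element), GAAA and GAAA 2 bases apart (an interferon element), GGG and TTTCC 2 bases apart (an NF-kB element) and TTGCNNAA (a C/EBP element), and capitals mark the matches. The *C3* window is chr17:57228087-57228386 on the minus strand.
C3: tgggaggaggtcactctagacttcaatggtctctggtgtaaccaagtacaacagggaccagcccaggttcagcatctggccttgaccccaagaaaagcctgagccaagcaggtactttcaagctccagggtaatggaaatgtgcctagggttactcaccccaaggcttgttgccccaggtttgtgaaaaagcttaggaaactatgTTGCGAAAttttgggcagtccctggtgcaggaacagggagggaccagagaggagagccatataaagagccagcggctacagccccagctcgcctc
The *Cd59a* window is chr2:104095551-104095850 on the plus strand.
Cd59a: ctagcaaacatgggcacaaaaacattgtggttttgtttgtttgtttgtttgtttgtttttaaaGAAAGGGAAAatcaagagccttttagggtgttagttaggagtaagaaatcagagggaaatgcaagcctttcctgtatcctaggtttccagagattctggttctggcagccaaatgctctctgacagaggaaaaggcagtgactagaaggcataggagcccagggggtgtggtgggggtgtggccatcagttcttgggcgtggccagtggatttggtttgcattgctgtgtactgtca
The *C3* window held 1 TTGCNNAA match, which begins at position -45 from the start, and that motif occurs in 10.8% of the 32544 promoter windows. The *Cd59a* window held 1 match to the interferon element, at position -187, and 3.45% of windows have one. The 2 windows share no motif of the 4. TTCNNNGAA occurs in 8.33% and the NF-kB element in 1.61% of windows, and neither was found in *C3* or *Cd59a*. Such matches describe letters and not binding. Of the genes that were not past 2-fold, *C1ra* had 1 match each to TTCNNNGAA and TTGCNNAA after the start, 1 of the 2 *C1s1* windows held TTGCNNAA, and *Cd55* had no match. The windows of *C4b*, *Cfb* and *Serping1* were not analysed here.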

How the data were processed

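RNA-sequencing of 2 libraries of 1 group was used. According to the methods and the labels, the authors aligned single-end 50-base reads of stranded poly(A) libraries to GRCm38 (mm10) with GENCODE M25 by STAR 2.7.3a, quantified genes with the Partek E/M method of Partek Flow 10.0.21.0801 and deposited counts-per-million (CPM) values. Whether the assignment used strand is not given in the sources used here. An offset of 0.0001 CPM was subtracted. Of values up to 50 reads, 63.3% in replicate 1 and 62.2% in replicate 2 were whole reads within 0.02, so a count model was used only for the intervals.

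Gene positions and lengths came from GENCODE M21 on GRCm38, where 97.2% of 23628 symbols matched 1 gene, and promoters from RefSeq. Read numbers are CPM divided by the step between low values, rounded to whole reads. Intervals are exact Poisson or, for ratios, exact conditional binomial, on these rounded reads. They leave out error in the division of reads among genes. Pairs of genes differed beyond their spread where the log2 ratio had 1 sign and its mean exceeded its SD. With 2 libraries this rule describes the values and is not a test.

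The 8 genes and the lists were chosen with earlier results of these data known. Named were the 8 genes, complement genes whose mean was 1 CPM or more, paralogs, and in other lists the highest gene and those of at least 10 CPM; further names were chosen after their values were seen. The design planned GCGEQ for the thioester search, and 1 variable position was allowed because *C4b* differs there. Some genes of the planned lists are not reported here and are not in the counts. The planned protein sequences and protease stretches were not used here. The computation was tested on simulated data. Alternatives covered scaling, pseudocount, gene length, paralogs and single libraries. Scripts ran in Python 3.11.15 with scipy 1.17.1 for intervals, biopython 1.88 for alignments, pandas 2.3.3 and numpy 2.4.6 for tables and matplotlib 3.10.9 for plots.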

Additional observations from a re-analysis of the deposited data

How the results depend on the processing

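For 31 results, 169 alternative values were computed. Of these, 146 stayed within 1 SD, on the same side of 2-fold or, for counts, within 1.5 times, while 12 moved further, 9 came within 2-fold and 2 reversed. With 2 libraries, the value of either library alone can never be more than 1 SD away from the mean. The 146 therefore include every level and every ratio of a gene pair taken from 1 library. Those entries could not have moved, and they say nothing about how far a level or a pair ratio would vary. The count of genes more than 2-fold lower in replicate 2 was 3, and 1 in the CPM as deposited, where the median gene is not set to 0. The log2 ratio of *C1s1* to *C1ra* was -1.56 with exonic length. Reversed were *Cd55* to *C1s1*, at -0.26 with exonic length, and *Cd59a* to *C3*, at -0.94 without division by length, since the *C3* transcript is longer. The log2 ratio of *C4b* to *C1ra*, -0.58 ± 2.94 (SD, n = 2), also changed sign, without division by length and in replicate 1 alone. It was not counted as reversed, because its mean was within its SD. The log2 ratio of *Serping1* between the libraries (-1.01) lay at the 2-fold limit and came within it under 5 of 8 alternatives, from -0.59 to -0.99, and that of *Cfb* was 0.28 with 1 CPM added. Scaling to a total that omits the 10 highest genes raised every level, for *C1ra* to 25.1 CPM. A ratio between the libraries needs both, so no library could be left out of it. No paired analysis was possible because there is 1 group. The 2 libraries limit every SD to n = 2.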
